A study of Mus musculus with 4 samples.

Results

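The 10 genes described here encode the signaling core of the T-cell receptor (TCR): the CD3 chains Cd3d, Cd3e, Cd3g and Cd247, the coreceptors Cd4, Cd8a and Cd8b1, and the first signaling molecules Lck, Zap70 and Lat. They were taken by symbol, and all 10 were found among the 24346 genes listed in each liver library. Liver RNA came from young adult male wild type C57BL/6 mice. Both groups ate the NASH diet, rich in fat, cholesterol and sucrose and with added bile salt, which induces steatohepatitis, for 3 weeks. In the 7KC group (n = 2 libraries) the diet also contained 7-ketocholesterol (7KC), an oxidized cholesterol, and in the control group (n = 2 libraries) it did not. Per the study, these livers were collected before any imiquimod treatment of the skin. Values of the libraries are given below with replicate 1 before replicate 2. The sources used here do not say whether each library came from a single mouse, so the p-values below measure only the spread between these libraries.

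T cells recognize antigen with a receptor that cannot signal by itself. The CD3 chains carry the signaling motifs, the coreceptors bring the kinase LCK to the receptor, LCK phosphorylates the CD3 chains, ZAP70 docks on them, and ZAP70 then phosphorylates the adaptor LAT, on which the downstream enzymes assemble. In liver these genes are expressed mainly by lymphocytes and not by hepatocytes. Some are shared with other leukocytes: CD247, ZAP70, LCK and LAT are also used by natural killer (NK) cells, CD4 is found on some myeloid cells, and CD8A on some dendritic cells. In whole liver, a change in the number of such cells and a change in RNA per cell cannot be told apart.

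Depth, estimated from the values themselves, was 13600000 to 17100000 mapped reads a library, provided that the values were scaled by all mapped reads. FPKM, the deposited unit, is the number of fragments mapped to a gene, scaled by the length of its transcript and by the size of the library. Whether that size was all mapped fragments or a normalized value was not established here. The hepatocyte marker Alb was at 41500 and 25200 FPKM in control livers and 27000 and 19000 FPKM in 7KC livers. The share of the FPKM sum held by the 10 highest genes was 23.0% and 22.3% in control livers and 19.8% and 17.9% in 7KC livers. FPKM is relative to all transcripts of a library, so its scaling was varied in the comparison below.

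Cd3g, Cd3d and Cd3e are neighbours on chromosome 9 (mm10). Cd3g (44969572 to 44980431, minus strand) and Cd3d (44981786 to 44987339, plus strand) are transcribed away from each other, with 1355 bases between their starts, and all 3 genes, with Cd3e at 44998740 to 45009627 on the minus strand, lie within 40056 bases. Cd8b1 (71322788 to 71337494, plus strand) and Cd8a (71373427 to 71379173, plus strand) are close to each other on chromosome 6, where Cd4 also lies (124864692 to 124888221, minus strand). Chromosome 1 holds Zap70 (36761798 to 36782818, plus strand) and Cd247 (165788681 to 165877277, plus strand). Lck lies on chromosome 4 (129548344 to 129573641, minus strand) and Lat on chromosome 7 (126363824 to 126369570, minus strand), all by the GENCODE M21 annotation. Of the 10 genes, 8 matched a promoter in RefSeq (GRCm38.p6), with 11 start sites in all. The 250 bases before a start are shown for the divergent pair, and for the most upstream starts of Lck and of Zap70, the gene with the smallest difference between groups. Capitals mark 4 searched motifs, on either strand. The letters TGTGGT are the core bound by RUNX factors. The letters GGAAGT are a core bound by ETS factors. Those of GATA factors are taken here as AGATAA in this search. The box bound by the TATA-binding protein is written TATAAA here.
Cd3g, chr9:44980432-44980681, minus strand: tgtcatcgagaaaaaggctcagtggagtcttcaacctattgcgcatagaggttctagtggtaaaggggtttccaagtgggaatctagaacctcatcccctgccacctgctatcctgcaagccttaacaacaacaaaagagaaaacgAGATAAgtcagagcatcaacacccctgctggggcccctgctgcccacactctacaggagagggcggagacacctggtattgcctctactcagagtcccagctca
Cd3d, chr9:44981536-44981785, plus strand: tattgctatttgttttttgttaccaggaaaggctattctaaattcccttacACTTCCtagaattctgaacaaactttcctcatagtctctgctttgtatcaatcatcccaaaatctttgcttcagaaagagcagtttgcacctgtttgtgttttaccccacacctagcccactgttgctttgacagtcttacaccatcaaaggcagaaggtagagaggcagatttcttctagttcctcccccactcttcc
Lck, chr4:129573642-129573891, minus strand: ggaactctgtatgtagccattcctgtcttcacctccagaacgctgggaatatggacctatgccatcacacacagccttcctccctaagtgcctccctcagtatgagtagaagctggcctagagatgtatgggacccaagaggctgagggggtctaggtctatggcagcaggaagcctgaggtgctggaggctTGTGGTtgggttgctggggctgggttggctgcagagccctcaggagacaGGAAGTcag
Zap70, chr1:36761548-36761797, plus strand: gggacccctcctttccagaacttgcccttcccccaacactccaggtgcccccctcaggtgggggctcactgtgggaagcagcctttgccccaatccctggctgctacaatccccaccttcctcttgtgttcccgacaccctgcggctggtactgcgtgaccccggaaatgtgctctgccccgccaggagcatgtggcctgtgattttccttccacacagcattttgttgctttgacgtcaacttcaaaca

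Read from the start site backwards, the Cd3g window held the GATA letters at position -104, and the Cd3d window held the ETS letters on the opposite strand at -199. In Lck the RUNX letters stood at -58 and the ETS letters at -9. The Zap70 window held none of the 4 motifs, while the window of an inner Zap70 start held the RUNX letters at -75 and the ETS letters at -202. Over all start sites, GGAAGT was found in 6 of the 11 windows (5 of the 8 genes) and in 19.7% of the 32851 windows of this length in the table. TGTGGT was found in 2 of the 11 (14.0% of all windows), AGATAA in 1 (9.99%) and TATAAA in 0 (12.4%). A gene with several starts has more windows, and a match is a description of the letters and not of binding.

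The first comparison asked whether these genes differed between livers of the 7KC and control groups. In each of the 10 genes the lower 7KC library exceeded the higher control library. This held for 25.1% of the 12299 genes tested. The reverse, both 7KC libraries below both control libraries, held for 3366 of them. In 9 of the 10 the group means also differed at least 2-fold, against 6.50% of all genes, and Zap70 was the exception. All 10 had an unadjusted limma p under 0.05 (12.0% of all genes, counting higher genes only), but 1 of them, Cd247, passed at an adjusted p under 0.05 (0.480% of all genes). The median log2 change of the 10 genes, on the log2(FPKM + 0.5) scale, was 1.34, beside -0.03 for all genes tested. It was 1.59 after rescaling to TPM, 1.34 after median-ratio scaling and 1.20 after quantile normalization. In that order, 5, 1 and 0 of the genes then passed by limma, beside 402, 59 and 52 higher among all genes tested. Median-ratio scaling left the deposited values nearly unchanged, with 59 genes higher before and after it, so it adds little as a check. Cd3d, Cd3e, Cd3g and Cd4 are in the heatmaps that the study drew from these libraries, so their direction is not independent evidence.

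**Figure D1:**
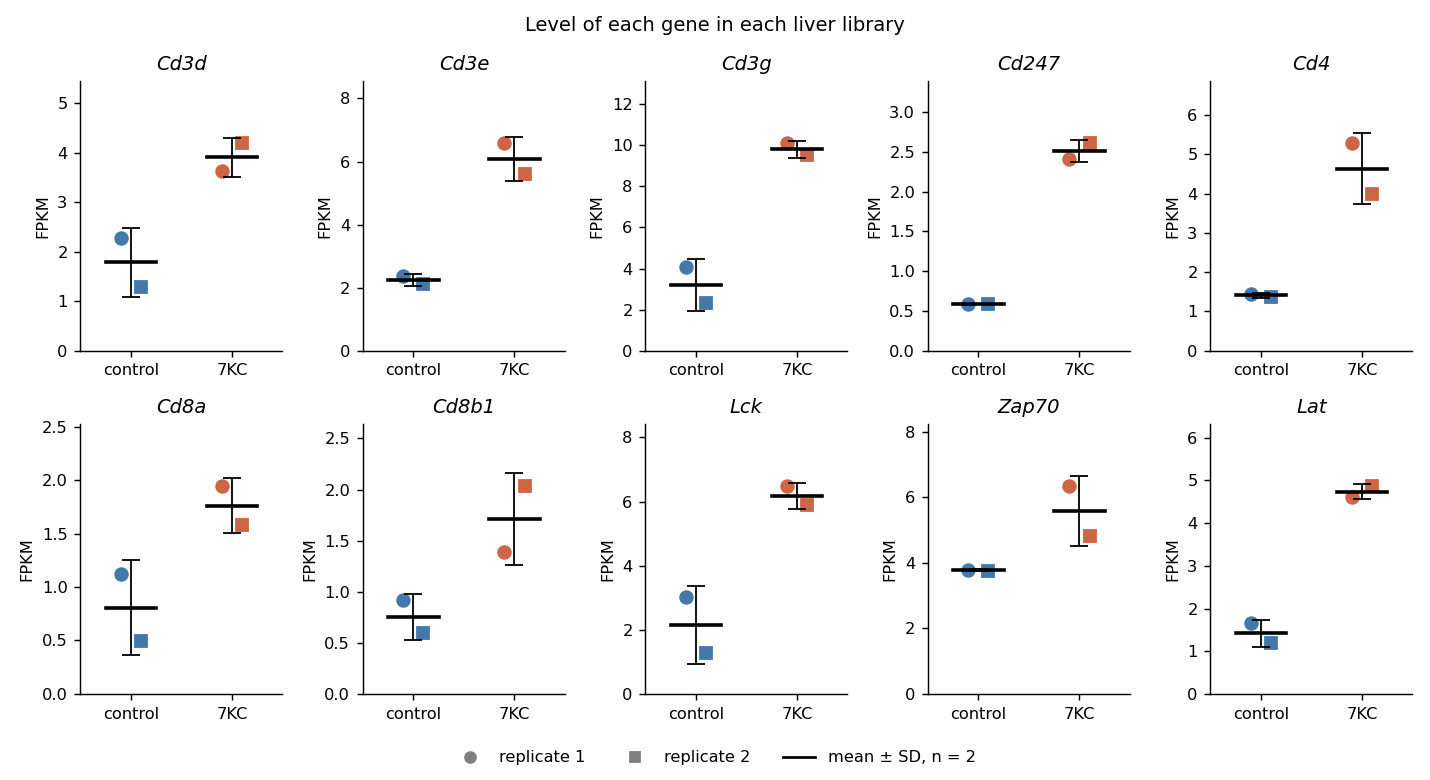
FPKM of each gene (vertical axes from 0, with a separate scale for each gene) in the 2 control and 2 7KC liver libraries. Circles are replicate 1, squares are replicate 2, and lines and bars are the mean ± SD (n = 2). In every panel both 7KC points lie above both control points, and the relative gap is smallest in Zap70.

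The ratio of the group means, 7KC to control, was between 2.19 and 4.27 for the CD3 chains, and 1 of these 4 genes passed the test. Cd247, the zeta chain with most of the receptor's signaling motifs, was at 0.59 and 0.586 FPKM in control replicates 1 and 2 and at 2.41 and 2.61 FPKM in 7KC replicates 1 and 2. It rose from 0.588 ± 0.0032 to 2.51 ± 0.144 FPKM (SD, n = 2 each), a ratio of 4.27 and a log2 change of 1.47 (limma SE 0.16, adjusted p 0.0451). The control libraries agreed more closely than read counting would give, since the values stood for about 21 and 17 reads, with a counting coefficient of variation of 21.8% and 24.3%. The call depended on the libraries and settings. The adjusted p of Cd247 became 0.033 or 0.0867 on leaving out the first or second control library and 0.153 or 0.28 on leaving out the first or second 7KC library, and it was 0.0505 when the filter was raised to a mean of 1 FPKM. Exons of Cd247 share 3007 bases with exons of Pou2f1 on the opposite strand, and the strand setting of the counting was not stated. They also share 206 bases with exons of Gm16565 on the same strand, which a strand setting cannot separate. Pou2f1 itself was at 0.598 and 0.962 FPKM in control livers against 0.933 and 1.02 FPKM in 7KC livers (log2 change 0.22 with SE 0.22, adjusted p 0.634 by limma).

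Cd3g, the gamma chain, was at 4.08 and 2.31 FPKM in control replicates 1 and 2 and at 10.1 and 9.51 FPKM in the 7KC libraries. The log2 change was 1.52 (limma SE 0.25, adjusted p 0.0648), the largest of the 10 genes on that scale. Control replicate 1 was 1.77 times control replicate 2, and the lower 7KC library was still 2.33 times control replicate 1. Cd3e, the epsilon chain, was steadier within the groups. It was at 2.37 and 2.12 FPKM in control livers against 6.58 and 5.59 FPKM in 7KC livers, with a log2 change of 1.26 (limma SE 0.15, adjusted p 0.0503), just short of the threshold. Of its exonic bases, 135 are shared with the opposite-strand gene Gm48719. Cd3d, the delta chain, differed least among the CD3 chains. It was at 2.28 and 1.29 FPKM in control livers against 3.63 and 4.19 FPKM in 7KC livers, with a log2 change of 0.98 (limma SE 0.24, adjusted p 0.137). As in Cd3g, control replicate 1 was 1.77 times control replicate 2. The 4 chains summed to 9.33 and 6.30 FPKM in the control libraries and to 22.7 and 21.9 FPKM in the 7KC libraries, that is 7.81 ± 2.14 and 22.3 ± 0.592 FPKM (SD, n = 2 each).

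Per length, which allows levels of different genes to be set side by side, the CD3 chains had the same order in all 4 libraries: Cd3g highest, then Cd3e, then Cd3d, and Cd247 lowest. Neighbours in this order were not always apart. Cd3e and Cd3d were at 2.37 and 2.28 FPKM in control replicate 1, and Cd3g and Cd3e at 2.31 and 2.12 FPKM in control replicate 2, which is less than the spread of Cd3d and Cd3g between the control libraries. The place of Cd247 was clear of the others in every library. It was the lowest of all 10 genes in control replicate 1, and in both 7KC libraries Cd8a and Cd8b1 were lower.

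Coreceptors mark the helper (Cd4) and cytotoxic (Cd8a and Cd8b1) classes of T cells. Cd4 was at 1.45 and 1.37 FPKM in control livers against 5.28 and 3.99 FPKM in 7KC livers, a ratio of the means of 3.29 and a log2 change of 1.42 (limma SE 0.17, adjusted p 0.0512). The control libraries were nearly equal, and the lower 7KC library was 2.76 times the higher of them. Cd8a, the alpha chain of CD8, was at 1.12 and 0.493 FPKM in control livers against 1.94 and 1.58 FPKM in 7KC livers, a ratio of the means of 2.18 and a log2 change of 0.83 (limma SE 0.28, adjusted p 0.229). Its control libraries differed 2.28-fold from each other, more than the ratio between the groups. Cd8b1, the beta chain found mainly on conventional cytotoxic T cells, was at 0.916 and 0.598 FPKM and at 1.39 and 2.03 FPKM, a ratio of the means of 2.26 and a log2 change of 0.81 (limma SE 0.24, adjusted p 0.188). It was also the most thinly covered of the 10 genes. Its values stood for about 11 to 36 reads, and the counting coefficient of variation in control replicate 2 was 30.2%.

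The balance of the coreceptors was then compared as a ratio within each library, which does not depend on the scaling of the library. The ratio of Cd8a to Cd4 was 0.775 and 0.359 in control livers against 0.368 and 0.396 in 7KC livers. Control replicate 1 stood apart, and control replicate 2 lay just below both 7KC libraries, so the groups overlapped (exact permutation test, 2-sided p 1). The larger ratio for Cd4 than for Cd8a between groups was therefore not a difference that these libraries resolve. Cd8b1 and Cd8a, whose proteins pair on cytotoxic T cells, were near each other in level, with a ratio of 0.817 and 1.21 in control livers against 0.713 and 1.29 in 7KC livers. This ratio varied as much within the groups as between them (exact permutation test, 2-sided p 1). With 2 libraries against 2, the smallest 2-sided p of this test is 0.333.

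Among the first signaling molecules, the log2 changes of Lck and Lat were within the range of the CD3 chains, and that of Zap70 was smaller. Lck, the kinase bound to the coreceptors, was at 3.01 and 1.28 FPKM in control replicates 1 and 2 and at 6.47 and 5.88 FPKM in the 7KC libraries. Its log2 change was 1.41 (limma SE 0.33, adjusted p 0.122). Control replicate 1 was 2.35 times control replicate 2, the widest gap between replicates among the 10 genes. Lat, the adaptor, was at 1.65 and 1.20 FPKM in control livers against 4.62 and 4.86 FPKM in 7KC livers, with a log2 change of 1.46 (limma SE 0.17, adjusted p 0.0512). The lower 7KC library was 2.80 times the higher control library, and only Cd247, at 4.08, had a wider gap. Zap70, the kinase that docks on the CD3 chains, was at 3.79 and 3.75 FPKM in control livers against 6.33 and 4.83 FPKM in 7KC livers. The ratio of the means was 1.48 and the log2 change 0.50 (limma SE 0.16, adjusted p 0.217), with the lower 7KC library 1.27 times the higher control library.

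Zap70 also held a different place among the 10 genes. It was the second most abundant in control replicate 1 and the most abundant in control replicate 2, and the fourth and the fifth in the 7KC libraries. The ratio of Zap70 to Cd3e was 1.60 and 1.77 in control livers against 0.963 and 0.863 in 7KC livers, so that all 4 values lay on the side of their group. For Cd247 the ratio to Cd3e was 0.249 and 0.277 in control livers against 0.366 and 0.468 in 7KC livers, also without overlap. Lat relative to Cd3e was at 0.695 and 0.566 in control livers against 0.702 and 0.870 in 7KC livers, where 7KC replicate 1 was almost at the level of control replicate 1. Each of these 3 ratios reached the smallest p that the exact permutation test allows (2-sided, 0.333), which is not a call. All 3 have Cd3e in common, and the share of gene pairs without overlap over all genes was not computed. The ratios of Cd3d, Cd3g and Lck to Cd3e overlapped between the groups. In all, 8 ratios were compared, and none could pass at this number of libraries, with or without adjustment.

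**Figure D2:**
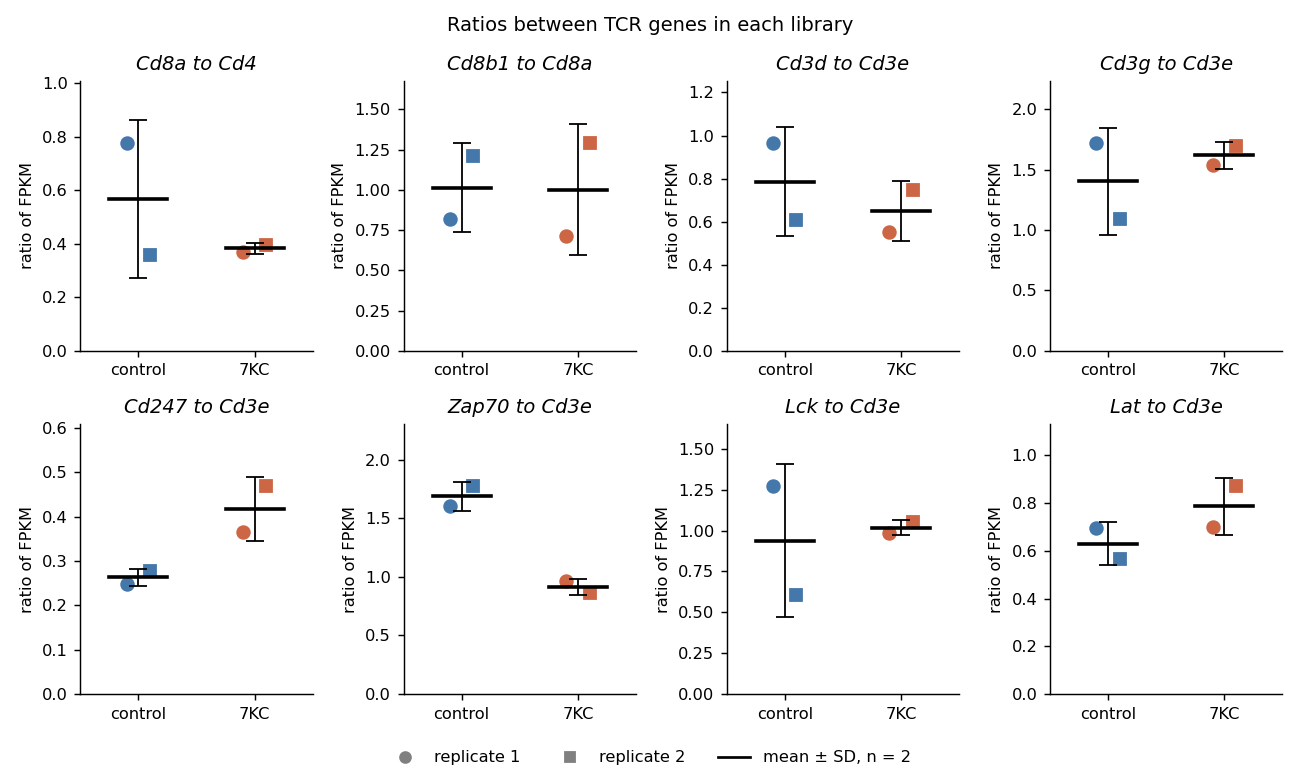
Ratios of FPKM between pairs of genes within each library (vertical axes from 0), for the 2 control and 2 7KC libraries. Circles are replicate 1, squares are replicate 2, and lines and bars are the mean ± SD (n = 2). The ratio of Zap70 to Cd3e lies between 0.863 and 0.963 in the 7KC libraries and at 1.60 and 1.77 in the control libraries, whereas the ranges of Cd8b1 to Cd8a overlap.

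All 10 genes were higher in control replicate 1 than in control replicate 2, from 1.01-fold in Cd247 and Zap70 to 2.35-fold in Lck. The gap was wide in Cd8a, Cd3d, Cd3g, Cd8b1 and Lck and narrow in Cd247, Zap70, Cd4 and Cd3e, with Lat between them. The 7KC libraries had no common direction: 4 of the 10 genes were higher in replicate 2, and the ratios of replicate 1 to replicate 2 ran from 0.681 in Cd8b1 to 1.32 in Cd4. Other leukocyte genes were likewise higher in control replicate 1, with all 15 pan-leukocyte genes 1.19 to 1.89 times their level in control replicate 2, and the summed B and plasma cell genes at 21.7 and 6.12 FPKM. Within the 7KC group the 2 sets parted: all 15 pan-leukocyte genes were higher in replicate 2, with ratios of replicate 1 to replicate 2 from 0.642 to 0.998. The median log2 change of the 10 genes was 1.39 without the first control library and 1.05 without the second. Between 0 and 7 of the genes passed when a single library was left out, and the 7, which were Cd247, Cd3d, Cd3e, Cd3g, Cd4, Lat and Lck, passed without control replicate 1. Without that library the calls over all genes were also more, at 404 higher of 12366 tested, against 59 of 12299 with it.

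Next, the 10 genes were set against a list of 15 genes that leukocytes of most kinds express, such as Ptprc (CD45), Cd52, Arhgdib and Coro1a. It shares Ptprc, Vav1 and Ptpn6 with the signaling lists below. In all 15 the lower 7KC library exceeded the higher control library, none passed by limma after adjustment (15 at an unadjusted p under 0.05), and the median log2 change was 1.19. Ptprc was at 8.47 and 5.65 FPKM in control livers against 15.5 and 20.6 FPKM in 7KC livers (log2 change 1.31 with SE 0.23, adjusted p 0.0765 by limma). The mean log2(FPKM + 0.5) of the 10 TCR genes was 1.25 and 0.85 in control livers against 2.25 and 2.19 in 7KC livers, a difference of 1.17 between the group means. That of the 15 leukocyte genes was 3.41 and 2.92, and 4.16 and 4.47, a difference of 1.15. The TCR genes less the leukocyte genes were at -2.16 and -2.07 in control livers against -1.91 and -2.29 in 7KC livers. Both control values fell between the 7KC values, and the group means, -2.12 ± 0.07 and -2.10 ± 0.26 (SD, n = 2 each), differed by 0.02. Relative to other leukocyte transcripts no difference in the TCR genes was thus resolved at the spread of these libraries. The value of 0.02 depended on the pseudocount: it was -0.10 with 1 FPKM and was not computed with 0.1 FPKM.

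Single genes lay on both sides of this average. Measured against the leukocyte list on the log2 scale, Zap70 was at -1.31 and -0.83 in control livers against -1.39 and -2.06 in 7KC livers, Cd8b1 at -2.91 and -2.79 and at -3.25 and -3.13, and Cd3d at -1.94 and -2.08 and at -2.12 and -2.24. In these 3 genes both 7KC values lay below the control values. Cd3g, at -1.22 and -1.43 and at -0.75 and -1.15, and Lat, at -2.31 and -2.16 and at -1.81 and -2.05, lay above them. The other 5 genes overlapped, and for none of the 10 can the exact permutation test give a p under 0.333. Some margins were small, as in Cd3d at -2.12 in 7KC replicate 1 against -2.08 in control replicate 2. The share of all genes without overlap on this measure was not computed, so these counts are a description only.

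**Figure D3:**
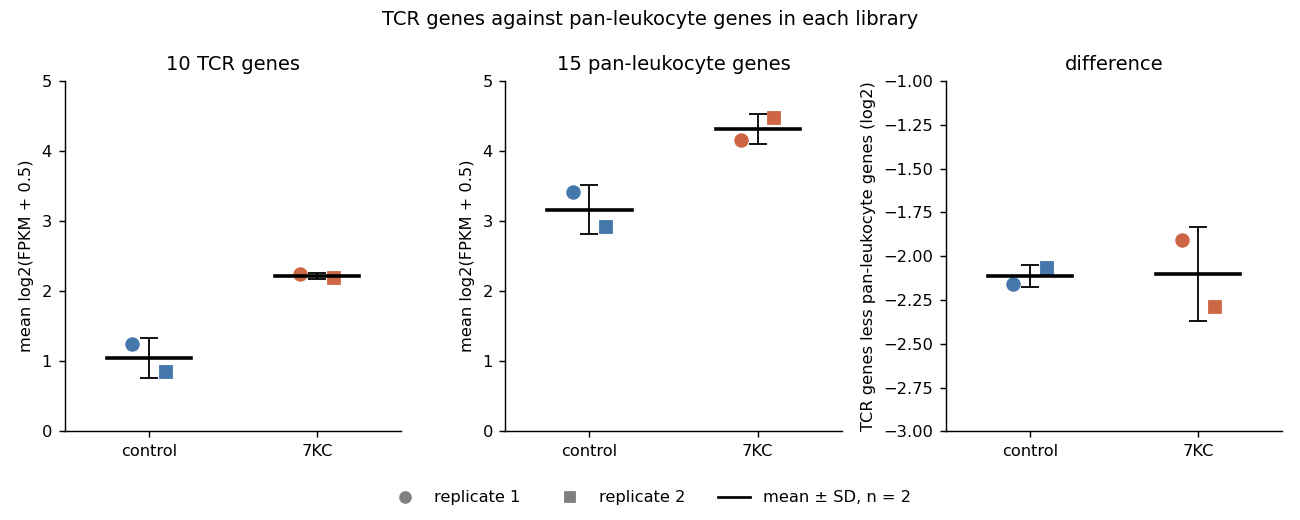
Mean log2(FPKM + 0.5) of the 10 TCR genes (left), of 15 pan-leukocyte genes (middle), and the difference between them (right, axis from -3 to -1) in each library. Circles are replicate 1, squares are replicate 2, and lines and bars are the mean ± SD (n = 2). The first 2 panels have 7KC means 1.17 and 1.15 above the control means, and in the third panel the control points lie between the 7KC points.

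Further components of the pathway were examined as lists written from general knowledge. Of the genes for the receptor's antigen-binding chains and their pre-T alpha partner, 1 of 15 symbols was matched, Ptcra, which had 0.0678 FPKM in 7KC replicate 1 and was listed at 0 in the other libraries. The remaining chains were not analysed here. Of 27 other proximal signaling genes, 23 were tested, 19 had both 7KC libraries over the control libraries and 1 had them under, and 1 passed, Lcp2. The median log2 change was 0.88. Lcp2 encodes the adaptor SLP-76, which joins LAT but is also used by myeloid cells and platelets. It rose from 5.21 and 4.61 FPKM in control livers to 12.4 and 15.1 FPKM in 7KC livers (log2 change 1.39 with SE 0.15, adjusted p 0.0408 by limma). Rasgrp1, which couples the receptor to RAS, was at 1.73 and 1.39 FPKM and at 4.01 and 4.54 FPKM (log2 change 1.21 with SE 0.16, adjusted p 0.0523 by limma). Trat1, an adaptor that associates with the receptor, was at 0.123 FPKM and listed at 0 in control livers against 1.39 and 0.766 FPKM in 7KC livers. Its log2 change was 1.47 (limma SE 0.29, adjusted p 0.0934). Of the relatives of LCK and ZAP70, Fyn had a log2 change of 0.61 (limma SE 0.18, adjusted p 0.188) and Syk, which is typical of B cells and myeloid cells, 1.10 (limma SE 0.23, adjusted p 0.105).

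Negative regulators of the receptor had 19 of 20 genes tested, 15 without overlap in the direction of the 7KC group and 0 in the other, 11 at an unadjusted limma p under 0.05, and 0 past the threshold. Their median log2 change was 0.79. Cd5, a receptor that dampens TCR signals, was at 0.749 and 0.271 FPKM in control livers against 2.07 and 2.13 FPKM in 7KC livers, a log2 change of 1.41 (limma SE 0.27, adjusted p 0.092). Ubash3a, a T-cell suppressor of TCR signaling, was at 0.211 and 0.105 FPKM and at 0.82 and 1.08 FPKM, with 1.14 (limma SE 0.23, adjusted p 0.0966). Lair1 and Dok1, which other leukocytes also express, had log2 changes of 1.51 and 1.23 (adjusted p 0.0767 and 0.0548, limma).

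Of 17 genes that receptor stimulation can induce, 10 were tested, 7 lay above the control libraries without overlap and 0 below, and 0 passed (7 at an unadjusted limma p under 0.05, all higher). The median log2 change was 0.76. Ifng, the cytokine interferon gamma, was at 0.408 and 0.362 FPKM in control livers against 2.99 and 1.38 FPKM in 7KC livers, a log2 change of 1.53 (limma SE 0.32, adjusted p 0.104). Cd69, an early activation marker, was at 1.03 and 0.766 FPKM and at 2.37 and 2.30 FPKM (log2 change 1.03 with SE 0.18, adjusted p 0.0704 by limma). Tnfrsf4, a costimulatory receptor, and Egr2, an activation-induced transcription factor, had log2 changes of 1.27 and 0.99 by limma (adjusted p 0.139 and 0.12). Egr1 and Nr4a1, early genes of many cell types, had log2 changes of -0.00 and 0.03, and Il2 was listed at 0 in all 4 libraries.

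**Figure D4:**
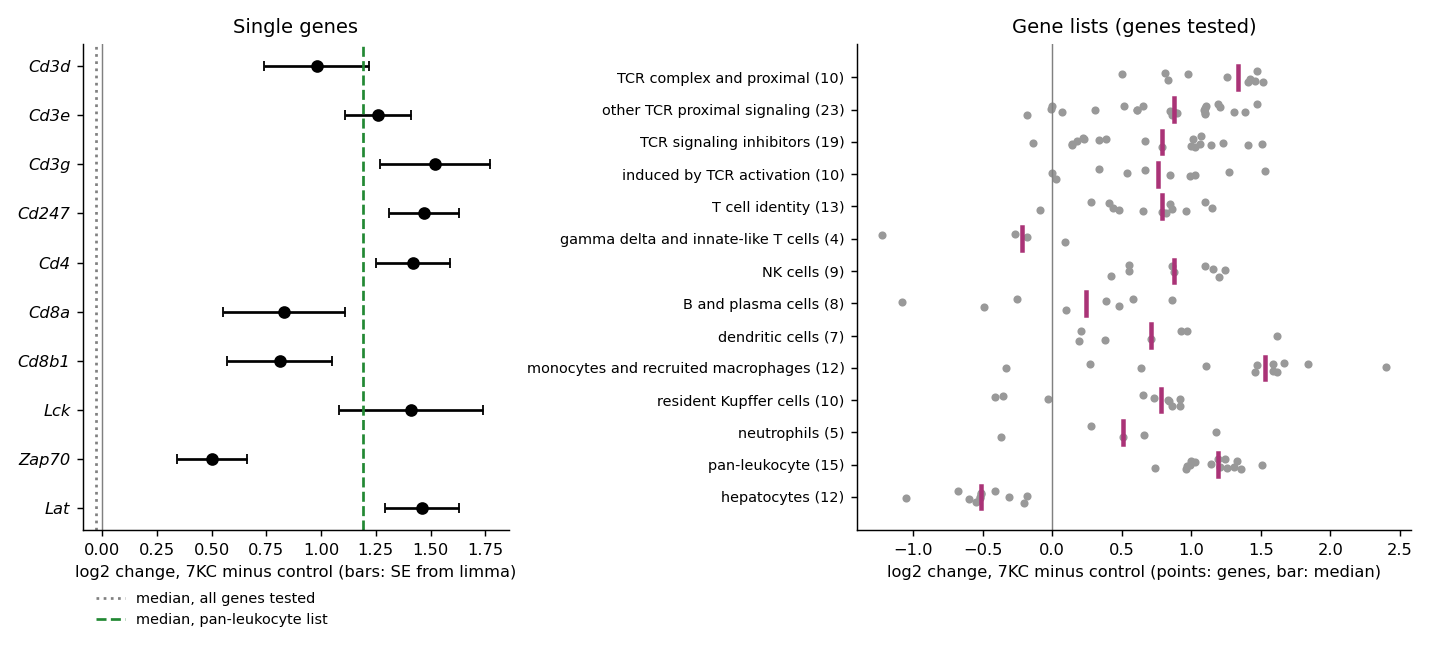
Left, log2 change (7KC minus control, on the log2(FPKM + 0.5) scale) of each TCR gene, with bars for the SE from limma, and vertical lines for the median of all genes tested (-0.03) and of the pan-leukocyte list (1.19). Right, the same measure for single genes (points) of each list, with the list median as a bar and the number of genes tested in parentheses. The TCR genes run from 0.50 in Zap70 to 1.52 in Cd3g around a median of 1.34.

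Markers of the cells that could carry these transcripts differed in direction between lists, and their part in the results was not tested. Of 16 genes of T cell identity, a list that overlaps the proximal signaling list, 13 were tested, 11 lay above and 1 below, and the median log2 change was 0.79. Their summed level was 32.9 to 37.1 FPKM in the control libraries and 49.8 to 61.4 FPKM in the 7KC libraries. Much of the control sum was S1pr1 and Ets1. S1pr1, the gene below, was at 11.1 and 10.9 FPKM in control livers against 10.1 and 10.6 FPKM in 7KC livers. Ets1 was at 7.12 and 6.85 FPKM and at 8.70 and 11.4 FPKM. The sum therefore does not stand for the list evenly. Ms4a4b, Thy1, Ikzf3 and Cd96 had the largest log2 changes without overlap, from 0.86 in Cd96 to 1.15 in Ms4a4b (adjusted p 0.201 and 0.0523, limma). Of 14 NK cell genes, 9 were tested and 8 lay above, with a median of 0.88. Their summed level was 116 to 151 FPKM in the control libraries and 261 to 344 FPKM in the 7KC libraries. Tyrobp alone held 111 to 145 and 243 to 332 FPKM of it, so the sum mostly stands for that 1 gene. Prf1 and Gzma, the perforin and granzyme A genes that cytotoxic T cells also use, had log2 changes of 1.24 and 1.20 by limma (adjusted p 0.175 and 0.224), and Klrk1 had 1.10 (adjusted p 0.0596). The defining NK cell gene Ncr1 was at 0.185 and 0.115 FPKM in control livers against 0.464 and 0.576 FPKM in 7KC livers, below the filter.

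B and plasma cell genes had no common direction, with 3 of 8 tested above and 1 below, a median log2 change of 0.24, and a summed level of 6.12 to 21.7 FPKM in the control libraries and 13.0 to 13.6 FPKM in the 7KC libraries. Dendritic cell genes had 5 of 7 above (median 0.71, summed level 9.12 to 15 and 23.5 to 26.1 FPKM). Monocyte and recruited macrophage genes had 7 of 12 above and 1 below (median 1.53, summed level 694 to 973 and 1510 to 2350 FPKM). Most of that sum was Lyz2, at 538 and 321 FPKM in control livers against 995 and 1580 FPKM in 7KC livers, and Fn1. Fn1, the gene below, was at 263 and 274 FPKM and at 210 and 217 FPKM. Resident Kupffer cell genes had 6 of 10 above and 2 below, with a median of 0.78 and a summed level of 765 to 808 and 1080 to 1570 FPKM, and their marker Clec4f had a log2 change of -0.03 (limma SE 0.18, adjusted p 0.94). Neutrophil genes had 2 of 5 above and 1 below (median 0.51, summed level 19.6 to 35.3 and 40.4 to 43.6 FPKM). In the list of gamma delta and innate-like T cell genes 8 of 12 symbols were matched, 4 were tested, and 1 lay above and 2 below. The largest difference there was in Zbtb16, which other liver cells also express, at 10.5 and 12 FPKM in control livers against 3.66 and 5.57 FPKM in 7KC livers (log2 change -1.22 with SE 0.21, adjusted p 0.0704 by limma). No gene of these lists passed the threshold by limma. At an unadjusted limma p under 0.05 the numbers higher were 8 for T cell identity, 8 for NK cells, 1 for B and plasma cells, 4 for dendritic cells, 7 for monocytes, 5 for Kupffer cells and 2 for neutrophils. The numbers lower were 1 for monocytes (Fn1), 1 for gamma delta and innate-like T cells and 2 for hepatocytes. Of all 12299 genes tested, 1477 were higher and 715 lower at that limit. The largest log2 changes without overlap in these lists were those of Cd79b (0.86), Itgax (1.62, in the dendritic and monocyte lists), Ly6c2 (2.40), Timd4 (0.92) and Csf3r (1.18). Hepatocyte genes had 0 of 12 above and 7 below, a median of -0.51, and a summed level of 63500 to 76500 and 41300 to 55900 FPKM. Beside all these lists, 3085 of the 12299 genes tested lay above and 3366 below.

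Genes whose values followed the mean of the 10 TCR genes most closely were Cxcr6, Ctla2b, Kif11, Dusp2 and Stx11. The measure was the root-mean-square difference between the centred log2(FPKM + 0.5) values over the 4 libraries, and it was 0.027 for Cxcr6 and Ctla2b and at most 0.048 for the 5, beside 0.12 for Cd3e and 0.38 for Zap70 among the TCR genes themselves. Cxcr6, a chemokine receptor of liver T and NKT cells, was at 2.04 and 1.5 FPKM in control livers against 4.49 and 4.37 FPKM in 7KC livers. Dusp2, a phosphatase of activated lymphocytes, was at 2.60 and 2.05 FPKM and at 6.14 and 5.84 FPKM. Kif11, a mitotic motor protein, was at 0.541 and 0.281 FPKM and at 1.48 and 1.34 FPKM. These 5 genes were picked for this likeness from 12299, so it is a description of 4 values each and carries no test.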

How the data were processed

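Liver RNA of 2 control and 2 7KC samples was prepared with a stranded mRNA kit and sequenced in single-end mode. The authors mapped the reads to mm10 and deposited FPKM, 1 value per gene symbol and library. The submitters' processing notes name TopHat2 2.1.1, Bowtie2 2.2.8, SAMtools 0.1.18 and Cuffdiff 2.2.1, whereas the study's methods name Cufflinks and other versions of the mapping tools. The annotation, strand setting and treatment of multi-mapped reads are not given in the sources used here. FPKM is not a count, and no count model was used.

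Values were compared as log2(FPKM + 0.5), which understates changes of low genes. A mean of 0.5 FPKM or more was required, which left 12299 genes, tested with limma 3.58.1 (R 4.3.3; lmFit, eBayes with a trended prior; 2 residual and 3.27 prior degrees of freedom), the group as the only term, and Benjamini-Hochberg adjustment over all of them. All 10 genes passed the filter. Ratios were tested with the exact permutation test of scipy 1.17.1.

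Depth was estimated from the whole-read steps of low values in genes with 1 GENCODE M21 transcript, less 200 bases. The share of these values no more than 0.1 from a whole number of reads was 69.8% to 71.1%, where chance gives 20%. Reads per gene use the median coding transcript length and are approximate. The counting error given covers sampling of reads only. The genes, lists and tests were chosen with earlier results of these data known. Genes named outside the 10 were those with the largest log2 changes without overlap in each list (at most 4, not all of them printed), those past the threshold, defining markers (some are not reported here), and, chosen after their values were seen, Pou2f1, Fyn, Syk, Egr1, Nr4a1 and Il2. Alternatives covered the pseudocount, the filter, the scaling (TPM, median ratio, quantile), the prior, a replicate block and leaving out each library.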

Additional observations from a re-analysis of the deposited data

How the results depend on the processing

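Of the alternatives, only a rescaling can bring overlap into genes that had none. All 10 genes lay above without overlap after the 3 rescalings run, beside 46.5% of all genes after TPM, 24.8% after the median ratio and 21.1% after quantile normalization (25.1% as deposited). The median ratio hardly changed the deposited values. The number past the adjusted p threshold, 1 of 10, was 4 with a pseudocount of 1 FPKM (Cd247, Cd3e, Cd4 and Lat), 5 after rescaling to TPM (these and Cd3g), and 0 with a mean of at least 1 FPKM, without a filter, under quantile normalization and with the replicate number as a block. It ran from 0 to 7 when a library was left out. Of 130 values of single genes under the alternatives other than the crossed replicate block described below, 110 kept their side of the threshold, 13 came to pass it and 7 no longer did, and the cause was not tested. The count over all genes was 111 higher and 4 lower with a pseudocount of 1 FPKM, 402 and 7 after rescaling to TPM, 39 and 1 without a trended prior, 0 and 1 without a filter, and 404 and 54, 48 and 5, 4 and 1, and 2 and 2 without control replicates 1 and 2 and 7KC replicates 1 and 2. With a mean of at least 1 FPKM, 51 of 11241 genes passed higher and 3 lower. Under quantile normalization, 52 of 12299 passed higher and 3 lower. TPM moved the median of all genes from -0.03 to 0.17. That of the 10 genes moved from 1.34 to 1.59, which is 1.43 above all genes, beside 1.36 before. The median of the 10 ran from 1.05 to 1.39 when a library was left out. Their difference from the pan-leukocyte list, 0.02, was -0.10 with a pseudocount of 1 FPKM and -0.14 against Ptprc alone. It was not computed with a pseudocount of 0.1 FPKM, where the median of the 10 genes rose to 1.50. The TCR genes are the lower of the 2 sets, so the pseudocount shrinks their changes more. The difference ran from -0.17 to 0.20 when a library was left out, a setting chosen after seeing the data. It was -0.03 without control replicate 1 and -0.17 without 7KC replicate 1, so it has no settled direction.

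The sources used here give the replicate numbers as names only. Whether same-numbered libraries shared a batch is not known. With the replicate block 0 of the 10 genes and 0 of all genes passed, with 1 residual degree of freedom (Cd247 adjusted p 0.193 by limma). The deviations of same-numbered libraries correlated at -0.14 across genes, and a crossed replicate block, added after seeing the data, gave 5 of the 10 genes and 551 higher and 37 lower over all genes. Where 1 library was left alone in a group, limma assumed that it varies like the other group. Depth limits Cd8b1 most, with about 11 to 36 reads, and a gene with 2 libraries a group cannot pass an exact permutation test.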
